A study of Mus musculus with 8 samples.

Results

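Genes for enzymes that write, erase or read histone marks were followed in layer IV of the mouse visual cortex. The set held 66 of the 34980 genes that the deposited count tables pair with a transcript. Members were taken by symbol: names starting with Kdm, Kmt, Mll, Hdac, Sirt, Setd, Ezh, Kat, Brd or Ehmt and a digit, plus Dot1l, Crebbp and Ep300. In all, 70 names fitted, and 66 were left once the sex-linked Kdm5c, Kdm5d and Kdm6a and the pseudogene symbol Kat2b-ps had been taken out. A total of 100 or more counts over the libraries was required, and every member reached it. The lowest totals were 142 counts for Hdac1 and 178 for Kdm4d, and no name fell just outside. All 66 also passed the filter on low counts, which left 15841 genes for testing. The tables use older symbols: Mll1, Mll2, Mll3 and Mll5 are now Kmt2a, Kmt2d, Kmt2c and Kmt2e, and Setd8 is now Kmt5a. Kmt2b is filed as Wbp7 and was therefore outside the set.

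RNA was extracted from manually dissected layer IV of B6D2 mice. The 3 groups analysed were wild-type (Otx2 +/+) at postnatal day 30 (P30), wild-type at postnatal day 100 (P100), and Otx2 heterozygous mice at P30, with 2 libraries each. The sample labels write the heterozygous genotype as Otx2 +/-, and the series design writes it as Otx2 (+/GFP). Each condition pooled 4 mice, and the labels do not say whether the duplicate libraries came from separate pools, so the p-values here reflect only how far these libraries spread, possibly for technical reasons. Heterozygous libraries of P100 were not analysed here. P30 lies in the juvenile period of high visual cortex plasticity and P100 in adulthood, and Otx2 is a homeoprotein that cortical interneurons take up from outside. The design thus asks how transcripts differ with age and with a lower Otx2 dose.

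Histone tails carry methyl and acetyl groups on lysines. Methyltransferases add methyl groups, and their effect depends on the residue: methylation of H3 lysine 4 (H3K4) marks promoters and enhancers, and that of H3 lysine 27 marks Polycomb-repressed genes. Lysine demethylases remove these groups. Acetyltransferases open chromatin by acetylating lysines, deacetylases and sirtuins reverse this, and bromodomain proteins bind the acetylated residues. In neurons these enzymes are known to couple activity to transcription, and deacetylase inhibition is known to reopen plasticity in the adult visual cortex. The name enzyme is loose for part of the set: the 7 Brd genes encode chiefly readers, and Setd3, Setd4 and Setd6 are SET domain methyltransferases known for non-histone targets. The roles used below are lists of symbols, and the activity of each protein was not measured.

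Gene-level totals ranged from 11016841 to 15308781 counts a library. Values below are CPM, counts scaled to 1000000 per library with TMM factors. Otx2 itself had 0 counts in 5 libraries, which allows up to 0.201 to 0.274 CPM in a single library at 3 counts, and 4.75 CPM in heterozygous replicate 2, so its transcript did not check the genotype labels. In that same library, 14 choroid plexus transcripts summed to 637 CPM, against 3.01 to 4.84 CPM in the other 5. The layer 4 neuron list of 9 genes summed to 1084 to 1322 CPM in all 6 libraries, of which Rorb alone gave 497 to 581 CPM. By edgeR's test 1 of the 9 was called higher with age (Rspo1) and 1 lower (Kcnh5), 3 were lower with genotype (Whrn, Tmem215 and Cux1), and 4 were lower in heterozygous P30 than in wild-type P100 (Rspo1, Scnn1a, Whrn and Tmem215). The part of these layer 4 differences in the differences of the members was not tested. In the heterozygous pair, Xist reached 785 and 924 CPM, against 0.264 to 0.639 CPM in wild-type libraries, while Ddx3y was at 2.48 and 1.04 CPM, against 146 to 156 CPM. The heterozygous pools were thus predominantly of female type and the wild-type pools of male type, and in every comparison below that sets heterozygous against wild-type libraries, genotype and sex cannot be told apart. The left-out Kdm5d, on the Y chromosome, had 1.34 and 0.651 CPM in the heterozygous pair, against 53.1 to 57.2 CPM in wild-type libraries.

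Summed over the 66 members, the libraries lay close together. The sums were 4702 and 4894 CPM in wild-type P30, 4765 and 4582 CPM in wild-type P100, and 4518 and 4647 CPM in heterozygous P30, and the lowest was 92.3% of the highest. Per kilobase of the counted transcript, known for 65 members, the most abundant was the class I deacetylase gene Hdac2 at a mean of 38.4 CPM per kilobase over the 6 libraries. The bromodomain gene Brd2 at 36.1, the methyltransferase gene Setd7 at 36.0 and the class IV deacetylase gene Hdac11 at 35.3 CPM per kilobase followed. At the low end lay Kdm6b at 1.93, Hdac1 at 0.860 and Kdm4d at 0.809 CPM per kilobase. The value of Hdac1 is uncertain, because 58.7% of the 50-base stretches of its transcript also occur in another gene, chiefly Gm10093. In all, 10 members shared 10% or more of their exon bases or 50-base stretches with another gene: Hdac1, Hdac11, Kat5, Kdm1b, Kdm2b, Kdm4d, Mll5, Setd1a, Setd3 and Sirt3. Whether the counting used strand is not given in the sources used here, so for the 7 of these that overlap another gene's exons (Hdac11, Kat5, Kdm1b, Kdm2b, Mll5, Setd1a and Sirt3) reads of the overlapping genes cannot be told apart. Hdac1, Kdm4d and Setd3 share 0 exon bases with another gene and are listed for their 50-base stretches alone.

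With age, 7 members changed between wild-type P30 and wild-type P100. The demethylase gene Kdm6b fell 3.39-fold, and Dot1l, Sirt2, Setd7 and Mll2 fell by less. The demethylase gene Kdm4d and the acetyltransferase gene Kat6b rose. These 7 were 10.6% of the members, beside 7.54% of all tested genes called at an adjusted p under 0.05 in edgeR's quasi-likelihood test. By direction, 5 fell and 2 rose, and over all tested genes 4.54% fell and 3.0% rose. DESeq2 called 6 members, all but Kdm4d, and 14 members had an unadjusted p under 0.05 (21.2%, beside 22.7% of all tested genes). The 2 groups did not overlap for 32 of the 66 members (48.5%), beside 51.2% of all tested genes. The median absolute log2 difference was 0.12 over the members and 0.17 over all tested genes. The count of 7 depended on single libraries: it was 4 and 2 without wild-type P30 replicates 1 and 2, and 1 and 3 without wild-type P100 replicates 1 and 2.

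Between heterozygous and wild-type mice at P30, 4 members changed, and each was lower in the heterozygous libraries: Kdm6b by 2.74-fold, Dot1l by 1.44-fold, Mll2 by 1.32-fold and Setd7 by 1.21-fold. They were 6.06% of the members, beside 3.23% of all tested genes called. Of all tested genes, 2.32% were called lower and 0.903% higher. No member was called higher by edgeR's test, with 3 higher at an unadjusted p under 0.05, and DESeq2 called 0 higher and the same 4 lower. The groups did not overlap for 26 members (39.4%), beside 48.9% of all tested genes. The median absolute log2 difference was 0.11 over the members and 0.15 over all tested genes. The age and genotype comparisons share the wild-type P30 libraries, so values given side by side below are not independent. The count of 4 was 1 without wild-type P30 replicate 2, 1 without heterozygous P30 replicate 1, 2 without heterozygous P30 replicate 2, and 1 with counts summed over transcripts.

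The third pair of groups, heterozygous P30 against wild-type P100, differs in age and genotype together. Here 3 members were called: Brd2 and the class II deacetylase gene Hdac9 were higher in the heterozygous P30 libraries, and Kat6b was lower. They were 4.55% of the members, beside 5.10% of all tested genes called, a share near the background. Over all tested genes 2.44% were called higher and 2.66% lower. The groups did not overlap for 34 members (51.5%), beside 50.5% of all tested genes. The count was 0 without either wild-type P100 library by edgeR's test (7 and 10 members at an unadjusted p under 0.05 without replicates 1 and 2), 1 without heterozygous P30 replicate 1, and 5 without wild-type P30 replicate 1.

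**Figure D1:**
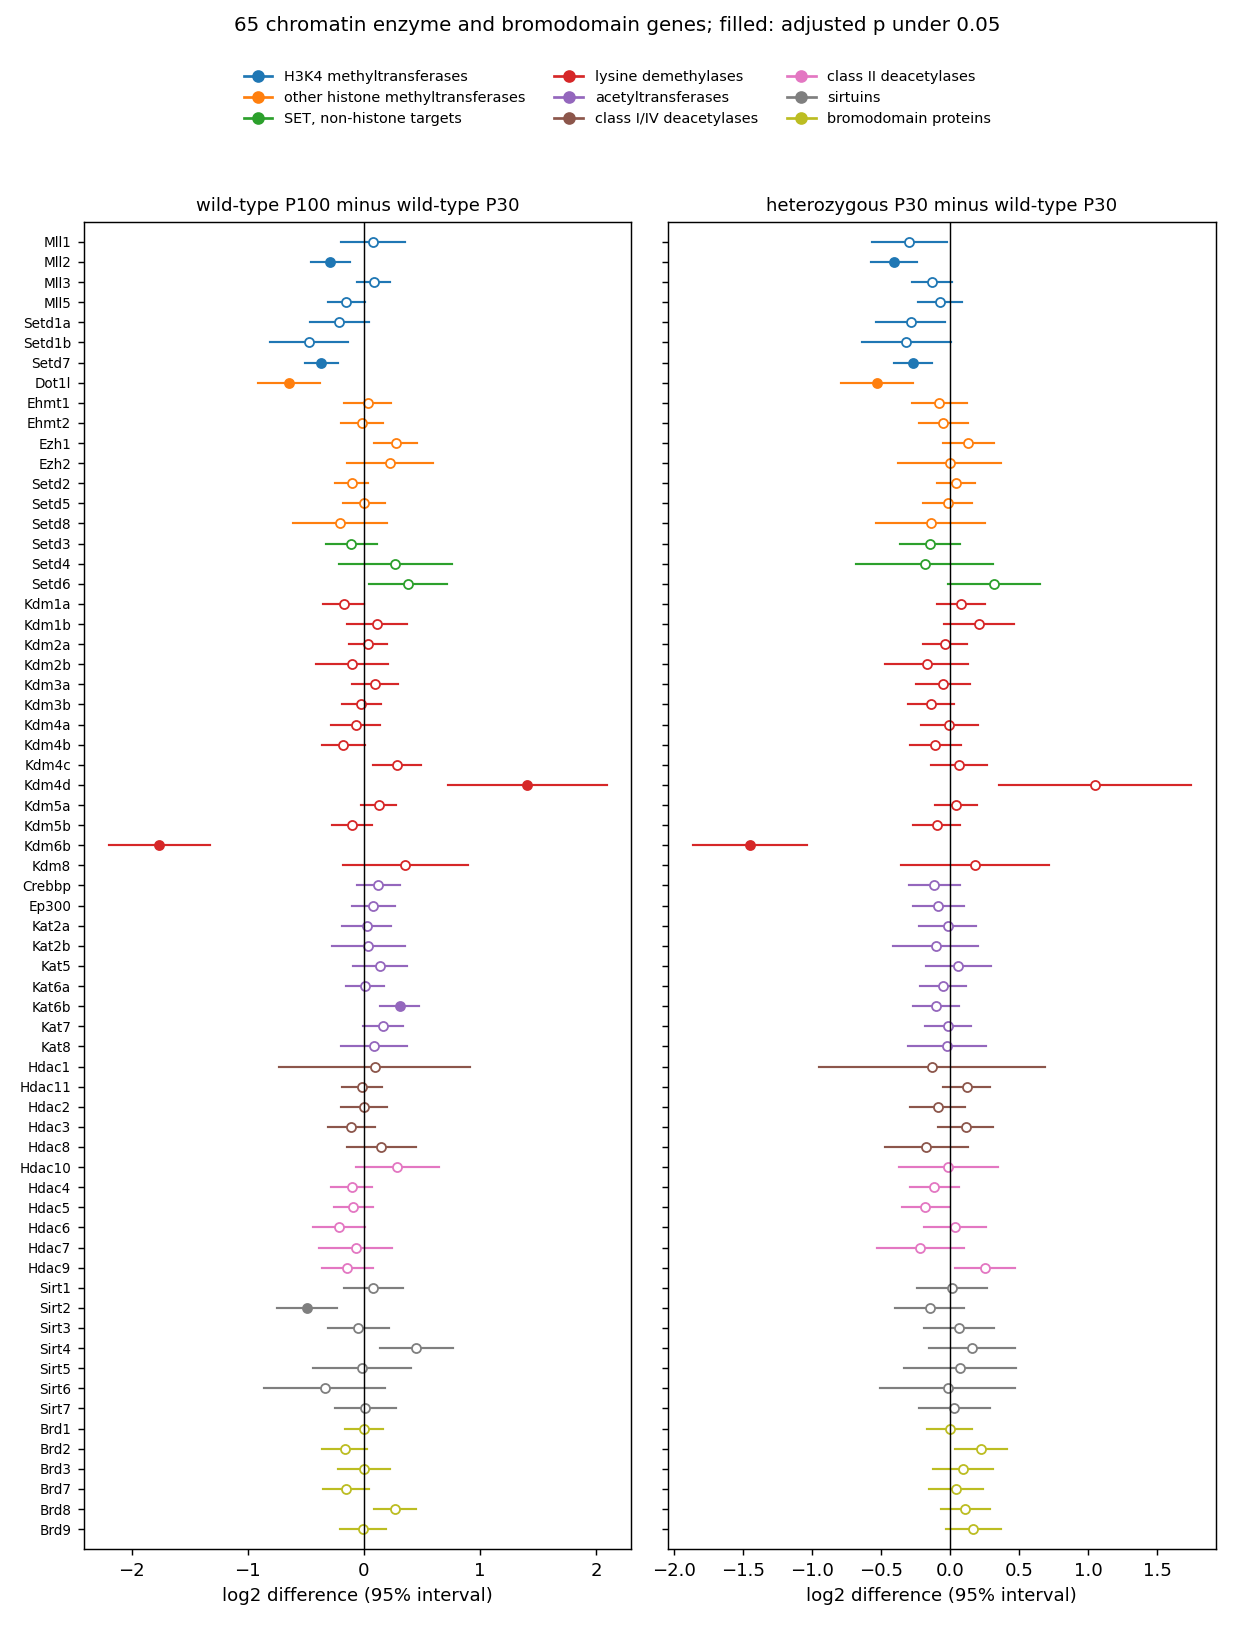
Log2 difference (horizontal axis) of 65 of the 66 members, wild-type P100 minus wild-type P30 on the left and heterozygous P30 minus wild-type P30 on the right, with bars for 95% intervals, colours for roles and filled points for an adjusted p under 0.05. Most intervals cross 0, and Kdm6b lies farthest to the left in both panels, at -1.76 and -1.45.

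For most members the 95% interval of the difference lay within 1.5-fold. These intervals reflect only how far these libraries spread. Some called members, such as Setd7 and Mll2 with age, also lie within this bound. In the age comparison, the 95% interval lay within 1.5-fold in either direction for 52 members (78.8%), beside 57.7% of all tested genes. In the genotype comparison it did so for 57 members (86.4%), beside 61.1%, and in the third pair for 53 (80.3%), beside 60.5%. Members were more deeply counted than most genes, with a median total of 4503 counts against 1423 over all tested genes, and their median standard error in the age comparison was 0.098 on the log2 scale against 0.138. In all, 57 of the 66 members were called in none of the 3 comparisons. Point estimates beyond 1.5-fold were found for 3 members with age (Kdm6b, Dot1l and Kdm4d), for 2 with genotype (Kdm6b and Kdm4d) and for 0 in the third pair.

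**Figure D2:**
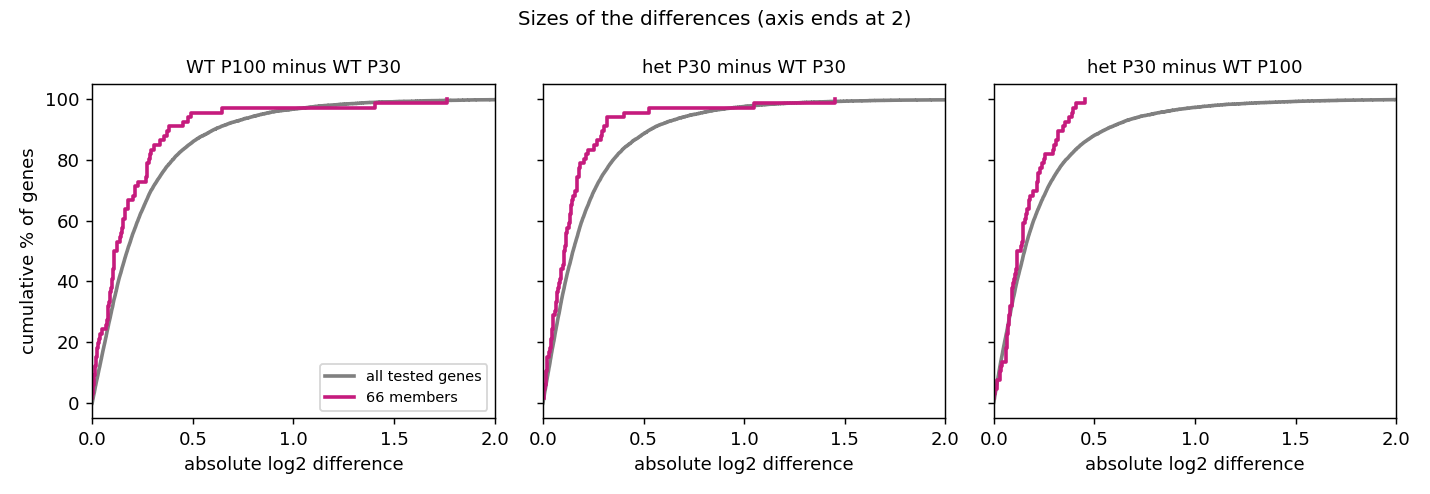
Cumulative percent of genes (vertical axis) against the absolute log2 difference (horizontal axis, ending at 2) for the 66 members and all 15841 tested genes, in the 3 pairs of groups. The members' curve lies mostly above that of all genes, with medians of 0.12 against 0.17 in the age panel and 0.11 against 0.15 in the genotype panel.

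Among the 14 lysine demethylase genes, 2 were called with age (14.3%) and 1 with genotype (7.14%), beside 7.54% and 3.23% of all tested genes. Of the 14, Kdm6b differed most. Kdm6b (ENSMUSG00000018476, GRCm38 chr11:69398508-69413675, minus strand) encodes a JmjC enzyme that removes methyl groups from H3 lysine 27. Its transcript stood at 19.6 and 26.7 CPM in the wild-type P30 libraries, at 7.89 and 5.72 CPM in wild-type P100, and at 7.10 and 9.89 CPM in heterozygous P30. Both wild-type P30 libraries lay far above the other 4, which overlapped. The group means were 23.2 ± 5.0, 6.80 ± 1.53 and 8.5 ± 1.97 CPM (SD, n = 2 each).

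The log2 difference of Kdm6b was -1.76 (SE 0.20, adjusted p = 0.000204) with age and -1.45 (SE 0.19, adjusted p = 0.000927) with genotype in edgeR's test. Between heterozygous P30 and wild-type P100 it was 0.31 with a 95% interval from -0.17 to 0.78 and did not pass (adjusted p = 0.497). Kdm6b was the only member called under each of the 15 alternatives tried, with adjusted p up to 0.00791 for age and up to 0.0189 for genotype. Without heterozygous replicate 2, the library with the choroid plexus transcripts, its genotype difference was -1.71. A second, 743-base Kdm6b transcript with 130 counts had log2 ratios of -1.58 and -1.17 in the same comparisons. Transcripts of a gene can share reads, so these ratios are not independent of the counted transcript.

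A list of 12 activity-regulated genes, which neurons induce within minutes to hours of firing, was lower like Kdm6b in both comparisons with wild-type P30. All 12, Fos, Arc and Npas4 among them, were called lower in both comparisons, and their sums were 2486 and 3059 CPM in wild-type P30, 516 and 592 CPM in wild-type P100, and 497 and 789 CPM in heterozygous P30. Between heterozygous P30 and wild-type P100 the list had a median log2 difference of 0.29, and Kdm6b had one of 0.31. There 5 of the 12 were called higher by edgeR's test (Fos, Egr1, Egr2, Egr4 and Nr4a3) and 0 lower, and Kdm6b was not called. The point estimates of Fosb, Arc, Npas4 and Dusp1 lay below 0. The part of those 12 genes in the Kdm6b difference was not tested. In tissue samples like these, fewer cells of a type and less RNA per cell cannot be told apart, for any gene described here.

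Kdm4d (chr9:14462548-14500482, minus strand), which encodes a demethylase of H3 lysine 9, moved the other way from a low level. Its libraries stood at 1.10 and 1.18 CPM in wild-type P30, at 3.33 and 2.73 CPM in wild-type P100, and at 2.35 and 2.41 CPM in heterozygous P30. The wild-type P30 pair was the lowest and did not overlap with either other group. Kdm4d rose with age by 1.41 on the log2 scale (SE 0.32, adjusted p = 0.0174). With genotype the difference was 1.05 (SE 0.32) and did not pass (adjusted p = 0.0991). The age call rests on 178 counts in all, and 11.04% of the transcript's 50-base stretches also occur in Kdm4dl. DESeq2 did not call it (adjusted p = 0.0775). It was also lost without wild-type P30 replicate 1 (0.0729) or 2 (0.0798) and without wild-type P100 replicate 1 (0.121) or 2 (0.0611).

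The other 12 demethylase genes, Kdm1a, Kdm1b, Kdm2a, Kdm2b, Kdm3a, Kdm3b, Kdm4a, Kdm4b, Kdm4c, Kdm5a, Kdm5b and Kdm8, passed in none of the comparisons. Kdm1a, the flavin-dependent H3K4 demethylase and the most abundant demethylase gene per kilobase at 24.1 CPM, stood at 75.8 and 72.9 CPM in wild-type P30, at 67.3 and 64.1 CPM in wild-type P100, and at 77.3 and 79.6 CPM in heterozygous P30. The wild-type P100 libraries were the lowest, with no overlap, and the age difference of -0.18 did not pass (adjusted p = 0.219). Summed over all 14, demethylase transcripts ranged from 807 to 846 CPM across the 6 libraries.

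**Figure D3:**
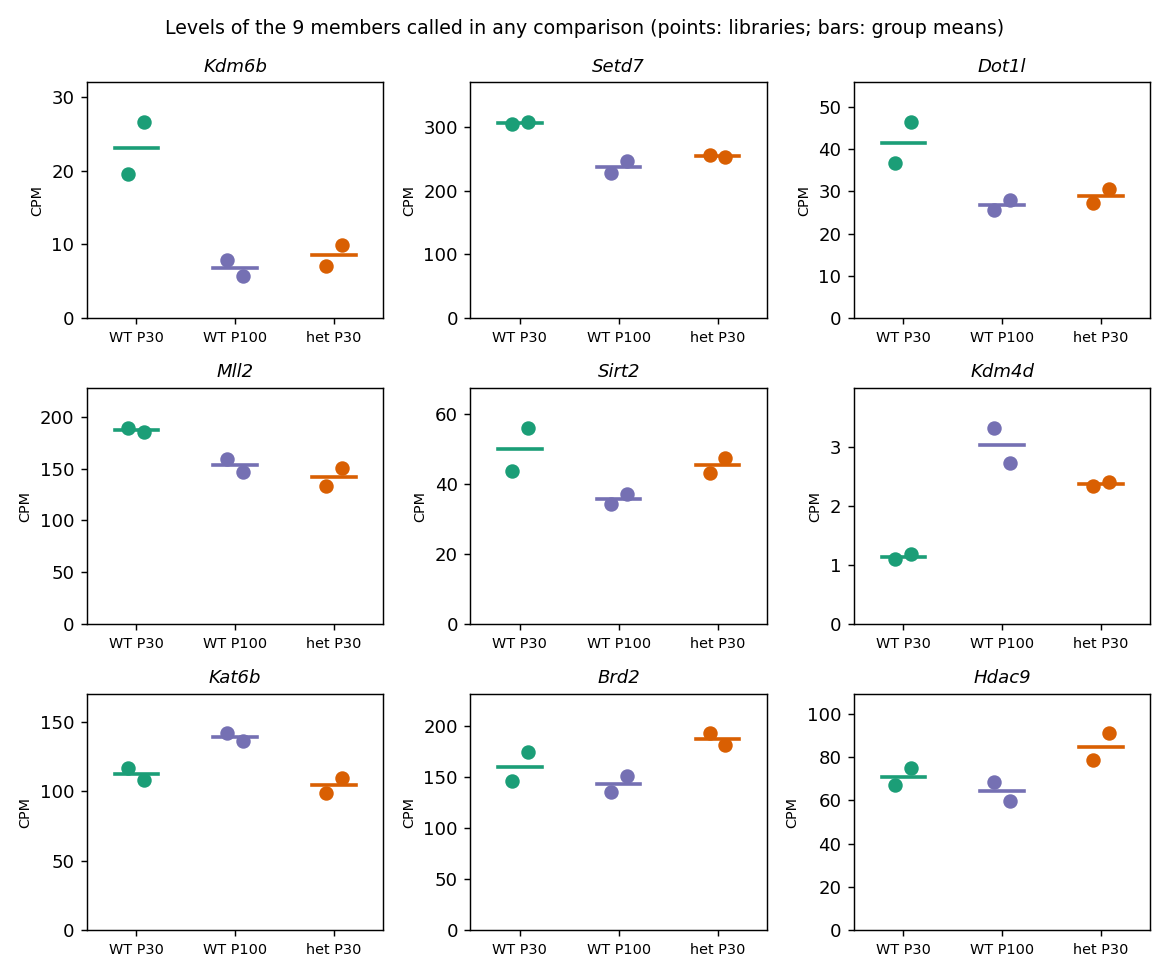
CPM (vertical axes, each from 0) of the 9 members called in any of the 3 pairs of groups, with a point for each library and a bar for each group mean. Kdm6b, Setd7, Dot1l and Mll2 are highest in both wild-type P30 libraries, Kdm4d is lowest there, Kat6b is highest in wild-type P100, and Brd2 and Hdac9 are highest in heterozygous P30.

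Of the 7 genes listed as H3K4 methyltransferases, 2 fell with age and 2 were lower with genotype, Setd7 and Mll2 each time. They were 28.6% of the 7 in each comparison, beside 4.54% and 2.32% of all tested genes called lower. Setd7 (ENSMUSG00000037111, chr3:51515319-51560879, minus strand) encodes a monomethyltransferase of H3K4 and of several non-histone proteins. It stood at 305 and 309 CPM in wild-type P30, at 229 and 247 CPM in wild-type P100, and at 257 and 253 CPM in heterozygous P30. The wild-type P30 pair was the highest, with no overlap with the other groups. The log2 difference was -0.37 (SE 0.066, adjusted p = 0.00465) with age and -0.27 (SE 0.066, adjusted p = 0.0400) with genotype.

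The 2 calls of Setd7 differed in how far they rested on single libraries. The age call was lost without wild-type P100 replicate 1 (adjusted p = 0.0536). The genotype call ended without wild-type P30 replicate 1 (0.0844) or 2 (0.163), without heterozygous replicate 1 (0.241) or 2 (0.203), and, at 0.05001, without wild-type P100 replicate 1. It was also lost with counts summed over transcripts (adjusted p = 0.106). The second Setd7 transcript, of 1043 bases and 553 counts, had log2 ratios of 0.02 with age and 0.10 with genotype, while the counted transcript of 7411 bases had -0.37 and -0.27.

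Mll2 (now Kmt2d, ENSMUSG00000048154, chr15:98831669-98871204, minus strand) encodes the large H3K4 methyltransferase that acts at enhancers. It stood at 190 and 186 CPM in wild-type P30, at 160 and 147 CPM in wild-type P100, and at 133 and 150 CPM in heterozygous P30. Again the wild-type P30 libraries were the highest, without overlap. The log2 difference was -0.29 (SE 0.078, adjusted p = 0.0367) with age and -0.40 (SE 0.078, adjusted p = 0.0117) with genotype.

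Without single libraries the Mll2 calls were lost as follows. The age call ended without wild-type P30 replicate 1 (adjusted p = 0.134) or 2 (0.0998), without wild-type P100 replicate 1 (0.0787) or 2 (0.258), and with counts summed over transcripts (0.0890). The genotype call ended without wild-type P30 replicate 2 (0.0598), without heterozygous replicate 1 (0.181) and with summed counts (0.0551).

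The other 5 genes of the H3K4 methyltransferase list, Mll1, Mll3, Mll5, Setd1a and Setd1b, were not called in any comparison. With genotype the point estimates of all 7 genes lay below 0, from -0.40 to -0.07, and 4 had an unadjusted p under 0.05. Their median was -0.29, beside 0.00 over all tested genes. Of all 66 members, 42 lay below 0 with genotype and 24 above. Of the 9 acetyltransferase genes 8 lay below 0, and of the 7 sirtuin genes 5 lay above. The 7 estimates come from the same libraries, and Mll1 differed between the wild-type P30 replicates (217 and 307 CPM). With age 5 of 7 lay below 0. Mll3, which encodes the paralogue of Mll2 in the same kind of complex, stood at 218 and 234 CPM in wild-type P30, at 244 and 235 CPM in wild-type P100, and at 204 and 208 CPM in heterozygous P30, and did not pass with genotype (adjusted p = 0.333). Summed over the 7 genes, levels were 1134 and 1263 CPM in wild-type P30, 1124 and 1070 CPM in wild-type P100, and 983 and 1046 CPM in heterozygous P30. The heterozygous libraries had the lowest sums, and the 2 wild-type groups did not overlap with them.

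Among the 8 other histone methyltransferase genes, Dot1l alone was called, in the age and in the genotype comparison. Dot1l (ENSMUSG00000061589, chr10:80755206-80795461, plus strand) encodes the methyltransferase of H3 lysine 79, a mark on transcribed gene bodies. It stood at 36.6 and 46.5 CPM in wild-type P30, at 25.6 and 27.9 CPM in wild-type P100, and at 27.3 and 30.5 CPM in heterozygous P30. Both wild-type P30 libraries exceeded the other 4, which overlapped. The log2 difference was -0.64 (SE 0.12, adjusted p = 0.00771) with age and -0.53 (SE 0.12, adjusted p = 0.0298) with genotype.

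All 7 Dot1l transcripts with 100 or more counts had negative log2 ratios, from -0.82 to -0.58 with age and from -1.07 to -0.44 with genotype. These transcripts share exons and therefore reads. The age call ended without wild-type P30 replicate 2 (adjusted p = 0.0698) and without wild-type P100 replicate 1 (0.0755). The genotype call ended without wild-type P30 replicate 2 (0.251), without heterozygous replicate 1 (0.250) or 2 (0.0554), when only the 4 libraries compared were fitted (0.0504) and with summed counts (0.0932). Without wild-type P30 replicate 2 its genotype difference was -0.34.

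The other 7 genes of this group, Ehmt1, Ehmt2, Ezh1, Ezh2, Setd2, Setd5 and Setd8, passed in no comparison. Setd2, for the enzyme that trimethylates H3 lysine 36 and the most abundant of them per kilobase at 32.7 CPM, ranged only from 254 to 292 CPM over the 6 libraries. The 3 genes for non-histone targets were not called either (edgeR, with 1, 0 and 0 at an unadjusted p under 0.05 in the 3 comparisons, and 0 called by DESeq2). Setd3, for an actin histidine methyltransferase, stood between 31.2 and 36.7 CPM. Setd6 stood at 10.7 and 9.04 CPM in wild-type P30, 13.9 and 11.5 CPM in wild-type P100 and 11.7 and 12.7 CPM in heterozygous P30, with an age difference of 0.38 that did not pass (adjusted p = 0.167). Setd4 ranged from 6.05 to 10.9 CPM, and its libraries of one group differed by more than the group means did.

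The bases just before the annotated starts of Setd7, Dot1l and Mll2 are printed because these 3 methyltransferase genes were called in the age and in the genotype comparison. The sequences are RefSeq promoter windows of GRCm38.p6, read 5′ to 3′ on the gene's strand, up to 250 bases long and cut to lie outside the annotated gene. Capitals mark CG dinucleotides, the sites of cytosine methylation in mammals. The coordinates are chr3:51560880-51561073 for Setd7, chr10:80754953-80755202 for Dot1l and chr15:98871206-98871455 for Mll2.
Setd7: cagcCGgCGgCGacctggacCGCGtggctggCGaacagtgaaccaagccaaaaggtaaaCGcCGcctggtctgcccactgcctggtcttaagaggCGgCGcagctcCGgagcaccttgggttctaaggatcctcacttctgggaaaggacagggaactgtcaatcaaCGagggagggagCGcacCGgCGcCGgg
Dot1l: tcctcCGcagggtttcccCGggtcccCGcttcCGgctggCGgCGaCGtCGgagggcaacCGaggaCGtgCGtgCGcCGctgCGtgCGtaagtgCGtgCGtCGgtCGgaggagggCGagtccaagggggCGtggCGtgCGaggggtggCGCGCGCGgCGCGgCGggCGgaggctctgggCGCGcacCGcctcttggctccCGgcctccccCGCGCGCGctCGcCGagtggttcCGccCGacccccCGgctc
Mll2: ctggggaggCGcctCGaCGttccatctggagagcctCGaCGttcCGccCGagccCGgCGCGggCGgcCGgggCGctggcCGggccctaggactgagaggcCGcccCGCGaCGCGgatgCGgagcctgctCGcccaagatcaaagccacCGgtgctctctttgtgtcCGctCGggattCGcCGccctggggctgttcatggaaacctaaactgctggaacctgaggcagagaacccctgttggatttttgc
They hold 16 CG dinucleotides in 194 bases, 44 in 250 and 26 in 250. Windows were found for 53 members, 76 windows in all (Kdm6b, also called in both comparisons, was not among them), and their median was 20 CG dinucleotides per 250 bases, against 6 over all 32851 windows. The 4 short motifs below were searched in the 250 bases on both strands.
The full cAMP response element TGACGTCA occurred in 0 of the 76 member windows and in 1.55% of all windows. Its core CGTCA, which lies inside the full element, occurred in 23.7% and 17.8% (18 member windows, of 15 members). CGTCA holds a CG dinucleotide, of which member windows had more, and the part of this was not tested. The AP-1 motif TGANTCA occurred in 6.58% and 6.75%, and the E-box CACGTG in 6.58% and 6.02%. The 3 windows printed held none of these 4 motifs.

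Among the acetyltransferase genes, Kat6b alone was called. Of the 9 genes, 1 was called with age (11.1%, beside 7.54% of all tested genes). With genotype 0 were called by edgeR's test (0 at an unadjusted p under 0.05 and 0 by DESeq2). Between heterozygous P30 and wild-type P100, 1 was called (11.1%, beside 5.10%). In that pair all 9 point estimates lay below 0, beside 41 of the 66 members. There 3 had an unadjusted p under 0.05 (Kat6b, Crebbp and Kat7). Kat6b (ENSMUSG00000021767, chr14:21481434-21672478, plus strand) encodes a MYST-family acetyltransferase of H3. It stood at 116 and 108 CPM in wild-type P30, at 142 and 136 CPM in wild-type P100, and at 99 and 110 CPM in heterozygous P30. The wild-type P100 libraries lay above all others, and the 2 P30 groups overlapped. Kat6b rose with age by 0.31 on the log2 scale (SE 0.078, adjusted p = 0.0295), and it was lower in heterozygous P30 than in wild-type P100 (log2 difference -0.41, SE 0.078, adjusted p = 0.00826). With genotype at P30 the difference was -0.10, with a 95% interval from -0.27 to 0.07.

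The age call of Kat6b ended without wild-type P30 replicate 1 (adjusted p = 0.0546) or 2 (0.174) and without wild-type P100 replicate 1 (0.168) or 2 (0.112). The call against wild-type P100 was lost without wild-type P100 replicate 1 (0.0855) or 2 (0.0549) and without heterozygous replicate 1 (0.124). The shorter Kat6b transcripts of 3508 and 997 bases had log2 ratios of 0.39 and 0.52 with age, beside 0.31 for the counted transcript. These transcripts can share reads, so the ratios are not independent.

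The other acetyltransferase genes, Crebbp, Ep300, Kat2a, Kat2b, Kat5, Kat6a, Kat7 and Kat8, were not called. With age the point estimates of all 9 genes lay above 0, from 0.01 to 0.31 with a median of 0.09, beside 0.00 over all tested genes, and only Kat6b passed. Their sums were 660 and 694 CPM in wild-type P30, 759 and 724 CPM in wild-type P100, and 620 and 675 CPM in heterozygous P30, highest in wild-type P100. Crebbp, the gene of the coactivator CBP that activity-dependent transcription factors recruit, stood at 163 and 187 CPM, 201 and 180 CPM, and 153 and 170 CPM in the same order, with overlap between the wild-type groups. Kat5, the most abundant acetyltransferase gene per kilobase at 25.5 CPM, ranged from 48.9 to 61.9 CPM with overlap among all groups.

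No deacetylase gene was called with age or with genotype. Of the 5 class I and IV genes (Hdac1, Hdac2, Hdac3, Hdac8, Hdac11) and the 6 class II genes (Hdac4, Hdac5, Hdac6, Hdac7, Hdac9, Hdac10), 0 were called with age or genotype by edgeR's test. DESeq2 also called 0, and at an unadjusted p under 0.05 there were 0 with age and 2, both of class II, with genotype. Hdac2, for the deacetylase tied to memory and synapse number in neurons, stood at 83.3 and 74.0 CPM in wild-type P30, at 84.0 and 72.9 CPM in wild-type P100, and at 75.3 and 72.2 CPM in heterozygous P30. Within both wild-type groups the replicates differed by more than the group means did. Its age difference was 0.00 with an SE of 0.093. Hdac3, for the catalytic subunit of the NCoR complex, ranged from 49.4 to 63.4 CPM, and Hdac11 from 86.6 to 100.0 CPM.

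The class II gene Hdac5, for a deacetylase that neuronal activity moves between nucleus and cytoplasm, ranged from 85.9 to 104 CPM. The X-linked Hdac6, for a cytoplasmic tubulin deacetylase, stood at 53.6 and 47.6 CPM in wild-type P30, at 40.2 and 47.0 CPM in wild-type P100, and at 49.9 and 53.6 CPM in heterozygous P30, and was not called with age (adjusted p = 0.248) or genotype (0.900). Hdac9 (chr12:34047580-34917095, minus strand), a class II gene with a known role in repressing MEF2 targets, stood at 67.2 and 74.9 CPM in wild-type P30, at 68.8 and 59.9 CPM in wild-type P100, and at 78.6 and 91.1 CPM in heterozygous P30. The heterozygous libraries were the highest, and the wild-type groups overlapped.

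Hdac9 was called in heterozygous P30 against wild-type P100, the log2 difference being 0.40 (SE 0.10, adjusted p = 0.0359). With genotype at P30 the difference was 0.25 (SE 0.10) and did not pass (adjusted p = 0.202). The call was lost without wild-type P100 replicate 1 (0.0686) or 2 (0.255), without heterozygous replicate 2 (0.281) and with summed counts (0.108).

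Of the 7 sirtuin genes, Sirt2 was called with age (14.3%, beside 7.54% of all tested genes). None was called with genotype (edgeR, 0 at an unadjusted p under 0.05, 0 by DESeq2). Sirt2 (ENSMUSG00000015149, chr7:28766735-28788661, plus strand) encodes an NAD-dependent deacetylase of tubulin and histones that is abundant in oligodendrocytes. It stood at 43.9 and 56.2 CPM in wild-type P30, at 34.3 and 37.2 CPM in wild-type P100, and at 43.3 and 47.5 CPM in heterozygous P30. The wild-type P100 pair was the lowest, and the 2 P30 groups overlapped. Sirt2 fell with age by 0.49 on the log2 scale (SE 0.12, adjusted p = 0.0242), and the genotype difference was -0.15 (SE 0.12, adjusted p = 0.566). All 9 of its transcripts with 100 or more counts had negative log2 ratios with age. Reads fell in every isoform they matched, so these ratios are largely of the same reads and add no separate support.

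Leaving out wild-type P30 replicate 2 ended the Sirt2 age call, with a log2 difference of -0.30 (adjusted p = 0.185), as did leaving out wild-type P100 replicate 1 (0.148) or 2 (0.0871). A list of 15 myelinating oligodendrocyte markers was measured beside it. Of these, 11 were called lower with age and 12 lower with genotype, Mbp and Mog among them, and 0 higher. Their sums were 3556 and 3397 CPM in wild-type P30, 2007 and 1702 CPM in wild-type P100, and 2455 and 2512 CPM in heterozygous P30. The part of these markers in the Sirt2 difference was not tested. The other 6 genes, Sirt1, Sirt3, Sirt4, Sirt5, Sirt6 and Sirt7, were not called in any comparison.

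Of the 7 bromodomain genes, 0 were called with age or genotype by edgeR's test, with 1 and 2 at an unadjusted p under 0.05 and 0 by DESeq2. Brd2 (chr17:34112023-34122634, minus strand), for a BET-family reader of acetylated histones, stood at 146 and 174 CPM in wild-type P30, at 135 and 151 CPM in wild-type P100, and at 192 and 181 CPM in heterozygous P30. The heterozygous libraries were above all wild-type ones, and the wild-type groups overlapped. Brd2 was called in heterozygous P30 against wild-type P100, the log2 difference being 0.39 (SE 0.089, adjusted p = 0.0224). The genotype difference at P30 was 0.22 (SE 0.089) and did not pass (adjusted p = 0.205). The call was lost without wild-type P100 replicate 1 (0.213) or 2 (0.0615), without heterozygous replicate 1 (0.159) and with summed counts (0.0656).

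Brd8, for a subunit of the NuA4 acetyltransferase complex, stood at 62.4 and 64.9 CPM in wild-type P30, at 74.6 and 79.0 CPM in wild-type P100, and at 70.5 and 67.0 CPM in heterozygous P30. It was highest in wild-type P100, without overlap, and the age difference of 0.27 missed the threshold (adjusted p = 0.0672). Brd1, Brd3, Brd7 and Brd9 were not called either, and all 7 bromodomain genes had 95% intervals within 1.5-fold in the age comparison.

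**Figure D4:**
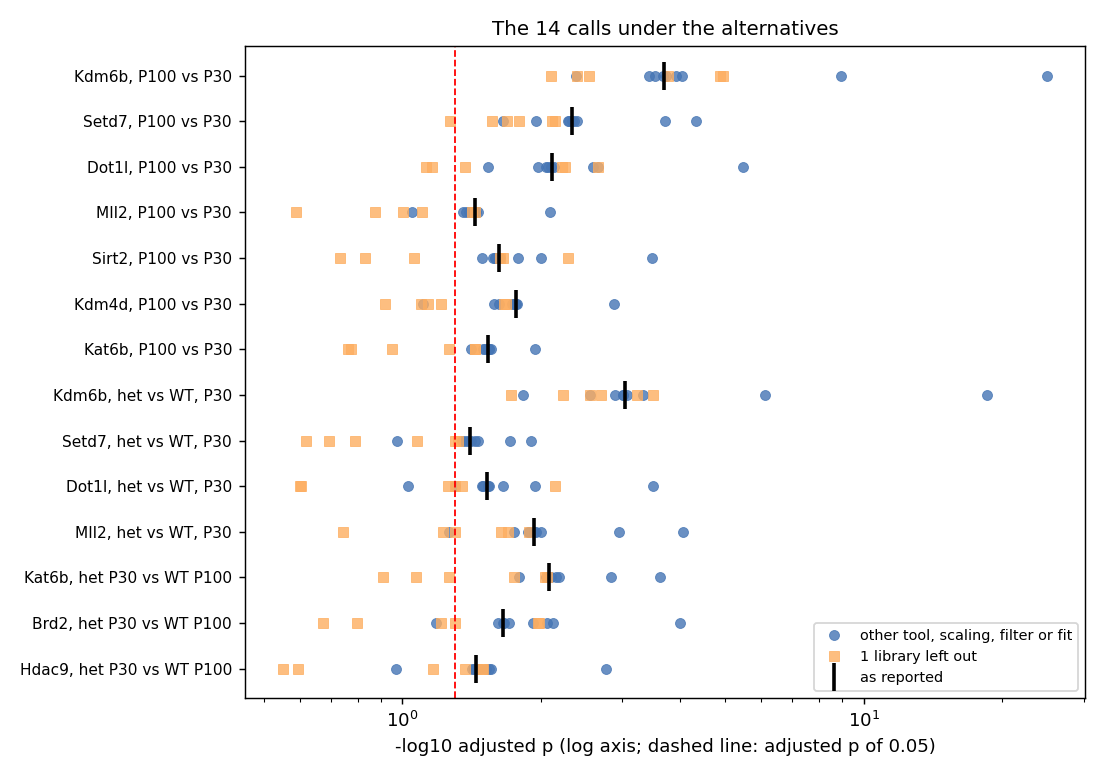
Minus log10 adjusted p (log axis) of the 14 calls made on members, as reported (black bars), with 1 library left out (squares) and under another tool, scaling, filter or fit (circles), with a dashed line at an adjusted p of 0.05. Only the 2 Kdm6b calls stay to the right of the line throughout, and the other 12 each have at least 1 square at or left of it.

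In the authors' deposited table of the age comparison, which tests transcripts, 2 members were called at an adjusted p under 0.05: Kdm6b (0.000637) and Setd7 (0.0271). Over all transcripts, 1017 of the 77959 with an adjusted p were called there. In the authors' deposited table of the genotype comparison, 2 members were called: Kdm6b (1.42e-05) and Mll2 (0.00920). Over all transcripts it was 780 of 78232. The log2 fold changes of Kdm6b in the authors' deposited tables were -1.77 and -1.44.

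Other genes of the chromatin machinery, 137 of them tested in 8 lists, were set beside the members. With age 15 were called (10.9%, beside 7.54% of all tested genes), 8 higher and 7 lower. With genotype 3 were called (2.19%, beside 3.23%), 1 higher and 2 lower, and between heterozygous P30 and wild-type P100 there were 10 (7.30%, beside 5.10%), 3 higher and 7 lower. Calls with age were most numerous among the 25 tested Polycomb subunits, with 6 by edgeR's test (24.0%, beside 7.54% of all tested genes) and 3 by DESeq2. Of these 6, 3 rose (Mtf2, Cbx7, Phc3) and 3 fell (Pcgf3, Cbx6, Cbx8). Polycomb complexes bind or place the H3 lysine 27 mark that Kdm6b removes, and a link of these calls to Kdm6b was not tested. Ezh1 and Ezh2, the members that place this mark, were not called. Of the 23 tested further bromodomain and remodeller genes, 4 were called with age (17.4%): Baz1b, Baz2b and Trim66 rose and Baz1a fell.

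Cbx7 rose with age, from 19.4 and 17.5 CPM in wild-type P30 to 33.5 and 32.1 CPM in wild-type P100 (log2 difference 0.84, SE 0.12, adjusted p = 0.000970), and stood at 22.5 and 19.5 CPM in heterozygous P30. Cbx6 fell, from 479 and 503 CPM to 354 and 368 CPM (-0.44, SE 0.063, adjusted p = 0.00111). Cbx8 fell from 15.9 and 15.1 CPM to 8.47 and 8.62 CPM, stood at 9.25 and 9.83 CPM in heterozygous P30, and was called in both comparisons with wild-type P30 (adjusted p = 0.00294 and 0.0137). The age calls of these 3 genes held under each of the 15 alternatives, and the genotype call of Cbx8 was lost without either wild-type P30 or either heterozygous library, with adjusted p up to 0.132. The age calls of Mtf2, Pcgf3 and Phc3 were lost without each of the 6 libraries in turn.

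Outside Polycomb, Hr, for a JmjC-domain corepressor, stood at 60.0 and 64.7 CPM in wild-type P30, at 37.5 and 43.6 CPM in wild-type P100, and at 34.5 and 41.2 CPM in heterozygous P30. It was called lower with age (adjusted p = 0.00456) and with genotype (0.00265), and the age call was lost without wild-type P100 replicate 1 (0.0546). Chd3, for a remodeller of the NuRD deacetylase complex, fell with age from 549 and 529 CPM to 417 and 338 CPM (adjusted p = 0.00335), and stood at 561 and 524 CPM in heterozygous P30. Smyd2 was the single gene of these lists called higher with genotype, at 119 and 107 CPM in heterozygous P30 against 76.6 and 83.9 CPM (adjusted p = 0.0189). That call was lost without either wild-type P30 library, without heterozygous replicate 1 and with summed counts, with adjusted p up to 0.173. Smyd4, another SET-MYND gene, rose with age from 22.5 and 20.0 CPM to 30.8 and 35.5 CPM (adjusted p = 0.00509), a call lost without wild-type P100 replicate 2 (0.0624).

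The 12 COMPASS subunits, partners of the H3K4 methyltransferases, had 0 calls in each comparison by edgeR's test, with 1, 0 and 0 at an unadjusted p under 0.05 and 0 by DESeq2. The 9 arginine methyltransferase genes also had 0 calls, with 1, 0 and 0 at an unadjusted p under 0.05 and 0 by DESeq2. The 10 acetyltransferase genes outside the set had 0 calls, with 2, 3 and 2 at an unadjusted p under 0.05 and 0 by DESeq2.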

How the data were processed

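The authors' deposited tables give raw counts of reads per Ensembl transcript for 6 libraries. Per the submitters' processing notes, Bowtie, HTSeq and DESeq 1.8.3 were used with mm10. Not given in the sources used here are their roles, the other versions, the use of strand and the annotation release. Comparison tables deposited by the authors hold a log2 fold change and an adjusted p-value per transcript, per the file headers.

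Reads fell in every isoform they matched, so the transcript with the most counts stood for each gene. Of 95533 transcripts, 9669 named no gene (13.8 to 14.1% of counts) and were left out. The counts passed filterByExpr at a minimum count of 10 and a minimum total of 15, and were TMM-scaled and fitted with edgeR 4.0.16 (R 4.3.3) in 1 quasi-likelihood model of 3 groups, with 3 residual degrees of freedom and no covariates. P-values were adjusted by Benjamini-Hochberg over all 15841 genes, with a threshold of 0.05. Intervals are 95% intervals from the same fit. Transcript log2 ratios are ratios of group mean CPM and carry no test. Replicates differed by more than sampling noise, with chi-square over degrees of freedom from 4.17 to 5.40. Gene coordinates come from GENCODE vM21.

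On simulated data with 200 changed genes, the age comparison recovered 55.2% of 1.5-fold, 74.6% of 2-fold and 97.0% of 4-fold changes, and 9.0% of calls were unchanged genes. Alternatives used DESeq2 1.42.0, limma 3.58.1 and other scalings, filters and sample sets. Named genes were members called in any comparison, the most abundant per kilobase and the smallest p of each role, and the lowest totals. Called genes of the other lists are described in part. Ing2, Phf21a, Mta3 and Prdm16 were also called and are not described above. The values of 1 member on its own are not reported here. The members and lists were chosen with earlier results of these data known. Cell type and activity lists named in the report are sums of CPM. The astrocyte (10 genes), endothelial (8), pan-neuronal (9) and microglia (10) lists had 3, 1, 2 and 2 genes called lower with age and 2, 1, 0 and 1 with genotype.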

Additional observations from a re-analysis of the deposited data

How the results depend on the processing

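No call on a member changed direction under the 15 alternatives tried. Of the 14 calls, 2, both of Kdm6b, were kept in each, and 7 were kept in each alternative that left out no library. With 1 library left out, the number of members called ranged from 1 to 7 with age, from 1 to 4 with genotype and from 0 to 5 between heterozygous P30 and wild-type P100, where a lone library is assumed to vary like the other groups. Summing counts over transcripts left 1 call with genotype (Kdm6b) and 1 in the third pair (Kat6b), and no filter on low counts gave 5 in the third pair (Mll1 and Sirt2 added). Of the 28 calls on other chromatin genes, 6 were kept in each alternative.

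Over all tested genes, 1194, 511 and 808 were called in the 3 comparisons, against 1860, 1120 and 1473 with no filter, 791, 263 and 502 with summed counts, and 822, 416 and 609 with DESeq2. With 1 library left out, these counts ranged from 351 to 1078, from 184 to 473 and from 255 to 942. Across genes, deviations of same-numbered libraries from their group means correlated at 0.134 between wild-type P30 and heterozygous P30. The correlation was 0.000214 between wild-type P30 and wild-type P100, and 0.00119 between wild-type P100 and heterozygous P30. The fit with the replicate number as a block called 7, 4 and 3 members, with the same names as without it, and 1320, 642 and 988 genes in all. Depth limits Hdac1, Kdm4d and the other members under 1000 counts, 12 in all. Requiring 1000 counts left 6, 4 and 3 members called.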
